A study of Mus musculus with 30 samples.

Results

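The genes described here are 32 listed enzymes and regulators of sterol and fatty acid synthesis, of which 31 were found by symbol in the merged count table of 33924 genes and Hmgcs1 was not. All 31 passed the filter on low counts, which 19016 genes passed. They comprise 14 enzymes of sterol synthesis, 13 enzymes of fatty acid synthesis, elongation and desaturation, and 4 regulator or transport genes (Insig1, Srebf1, Srebf2 and Stard4). The members were taken from a list of pathway genes by name, a list drawn up with earlier results of these data known. RNA was sequenced from mouse thyroid, and 28 of the 30 labelled samples were analysed here.

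Of the 10 groups, the wild-type and the Arid1a knockout thyroids carried no mutant Braf and received no treatment, with 3 libraries each. The other 8 groups carried Braf V600E, an allele that keeps MAPK signalling switched on. They had either no further deletion (called Braf) or a knockout of Arid1a, Arid2 or Smarcb1, genes for parts of SWI/SNF, a complex that moves nucleosomes. In all 4 genotypes mice were given vehicle or CKI, the MEK inhibitor CH5126766, for 8 days and were killed about 2 hours after the last dose. These groups had 3 libraries each, except the Braf Arid2 vehicle and Braf Arid2 CKI groups with 2 each. The dose, the age of the mice, the driver of the alleles and whether libraries came from separate animals are not given in the sources used here, so each p-value rests on how far these libraries spread, which may be technical. One protocol text, standing on every sample, names whole frozen thyroids for the wild-type, Arid2 and Smarcb1 mice, and another names sorted YFP-positive cells; where a comparison crosses these genotypes, preparation and genotype cannot be told apart. In bulk RNA, fewer cells of a type and less RNA per cell cannot be told apart either.

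Cells build cholesterol from acetyl-CoA through mevalonate, isoprenoid and squalene intermediates, and build fatty acids from the same precursor by way of acetyl-CoA carboxylase and fatty acid synthase, after which elongases and desaturases lengthen and unsaturate the chains. The transcription factors SREBP-1 and SREBP-2, encoded by Srebf1 and Srebf2, switch on many of these genes when membrane sterols are low, and Insig1 holds their precursors in the endoplasmic reticulum when sterols are plentiful. In the thyroid, follicular cells make hormone on thyroglobulin and their membranes turn over under the control of thyrotropin.

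Each library held 23879271 to 34400066 counted reads, and the TMM scaling factors ran from 0.723 to 1.25. Levels are CPM, the reads of a gene relative to the library's total after TMM normalisation, listed in the order of the library numbers, and compare one gene across libraries, not genes with each other. Smarcb1 counts were 2.28 to 17.9 CPM in the Braf Smarcb1 vehicle libraries against 57 to 131 CPM in Braf vehicle. Arid1a was at 12 to 15.9 CPM in Braf Arid1a vehicle against 11.6 to 30.9 CPM in Braf vehicle, ranges that overlapped. The total count thus did not separate these groups, and Arid1a loss below means the label. Arid2 was at 15.5 to 37.5 CPM in the libraries labelled Braf Arid2 vehicle against 7.03 to 19.7 CPM in Braf vehicle and was not lower, so the Arid2 label had no check from the gene's total count, which does not resolve a deleted exon. The 8 thyroid follicular cell markers were detected in every group. Libraries 1 and 3 of the Arid1a knockout group stood apart: the weight of GC-rich genes, the log2 level of the genes in the top quartile of GC content minus that of the bottom quartile, each gene relative to its mean over all libraries, was -1.01 and -0.87 there and -0.40 to 0.44 in all libraries outside that group. Braf vehicle library 2 had the lowest TMM factor (0.723). Its weight of long genes, computed in the same way from transcript length, was also the lowest, at -0.81 against -0.47 to 0.74 in all other libraries. This library enters every comparison with Braf vehicle.

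The promoters are shown for 4 members that moved with genotype and whose windows hold CCAAT (Mvk, Idi1, Cyp51 and Insig1). Beside them stand the elongase genes Elovl2 and Elovl6. These were called most often with the MEK inhibitor, Elovl2 in 4 and Elovl6 in 3 of the 4 genotypes. The genes shown were picked for display and do not stand for the members that moved with genotype or with the drug. The sequences are the 250 bases before the transcription start from RefSeq on GRCm38.p6, written in the gene's direction, with CCAAT or its complement ATTGG in capitals. They come from chr5:114444019-114444268 on the plus strand for Mvk, chr13:8885356-8885605 on the plus strand for Idi1, chr5:4104698-4104947 on the minus strand for Cyp51, chr5:28071162-28071411 on the plus strand for Insig1, chr13:41220404-41220653 on the minus strand for Elovl2 and chr3:129532136-129532385 on the plus strand for Elovl6.
Mvk: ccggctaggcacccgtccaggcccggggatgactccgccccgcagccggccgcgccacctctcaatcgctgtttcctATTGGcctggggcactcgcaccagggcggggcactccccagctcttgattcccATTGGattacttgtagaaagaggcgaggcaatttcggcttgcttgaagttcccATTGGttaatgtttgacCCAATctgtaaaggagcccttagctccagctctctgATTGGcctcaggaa
Idi1: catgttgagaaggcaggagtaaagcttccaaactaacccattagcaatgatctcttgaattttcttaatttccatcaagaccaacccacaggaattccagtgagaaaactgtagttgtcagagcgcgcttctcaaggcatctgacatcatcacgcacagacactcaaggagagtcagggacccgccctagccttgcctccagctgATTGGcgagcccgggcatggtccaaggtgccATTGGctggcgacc
Cyp51: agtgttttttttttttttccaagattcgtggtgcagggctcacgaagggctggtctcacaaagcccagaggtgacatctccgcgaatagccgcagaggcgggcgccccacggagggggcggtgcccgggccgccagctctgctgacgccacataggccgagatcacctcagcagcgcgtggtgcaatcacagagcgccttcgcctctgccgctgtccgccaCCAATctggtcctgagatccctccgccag
Insig1: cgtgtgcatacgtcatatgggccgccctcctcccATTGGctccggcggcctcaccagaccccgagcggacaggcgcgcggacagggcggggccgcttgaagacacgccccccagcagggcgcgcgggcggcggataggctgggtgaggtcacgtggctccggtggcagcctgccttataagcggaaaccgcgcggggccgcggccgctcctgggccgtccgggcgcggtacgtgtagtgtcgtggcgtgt
Elovl2: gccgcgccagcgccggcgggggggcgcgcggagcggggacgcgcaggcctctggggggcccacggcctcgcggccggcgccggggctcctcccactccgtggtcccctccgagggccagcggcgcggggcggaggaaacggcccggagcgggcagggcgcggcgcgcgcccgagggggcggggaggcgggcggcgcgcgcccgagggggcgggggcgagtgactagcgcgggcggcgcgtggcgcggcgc
Elovl6: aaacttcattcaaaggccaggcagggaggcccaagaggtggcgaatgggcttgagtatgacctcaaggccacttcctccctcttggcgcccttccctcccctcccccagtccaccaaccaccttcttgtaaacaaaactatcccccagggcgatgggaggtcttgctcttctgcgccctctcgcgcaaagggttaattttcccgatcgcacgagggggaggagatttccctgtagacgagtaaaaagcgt

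The Mvk window held 5 CCAAT matches, Idi1 held 2, Cyp51 and Insig1 held 1 each, and Elovl2 and Elovl6 held 0. Other members went against this split. The windows of Me1, Elovl1 and Srebf1, called with CKI in Braf, held CCAAT. Those of Acly and Fads2, called with Smarcb1 loss, did not. RefSeq promoter windows were matched for 24 of the 31 members, and both strands were searched. CCAAT, the letters bound by NF-Y, was present in 19 of 24 member windows (79.2%) and in 37.5% of the windows of all 27025 genes. GGGCGG, an Sp1 motif, was present in 18 of 24 (75%) and in 35.4% of all windows. The E-box CACGTG was present in 4 of 24 (16.7%), Hsd17b7, Dhcr7, Elovl5 and Insig1, and in 6.9% of all windows. TCACNCCAC, the core letters of a sterol regulatory element, was present in 0 of 24 and in 1.2% of all windows. These are matches of letters in windows of equal length, and the count data do not bear on binding. The 27025 genes were not limited to those that passed the filter on low counts, which all 31 members passed. The sets therefore differ in more than pathway.

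The elongases Elovl2 and Elovl6 were the members that differed most often, each called in 7 of the 10 comparisons of 2 groups, whereas Lss, Nsdhl, Hsd17b7, Acaca, Acacb and Scd2 were called in 0 of 10. A member was called where its adjusted p, from the edgeR quasi-likelihood fit with Benjamini-Hochberg adjustment over all 19016 genes, was under 0.05. In Braf vehicle against wild type 0 members were higher and 5 lower (Elovl2, Elovl6, Fads1, Fads2 and Mvd). The wild-type mice received no vehicle, so mutant Braf and treatment cannot be told apart there. The background, the share of all tested genes called higher and lower, was 9.84% and 10.1% (20.0% together). CKI against vehicle called 4 higher and 1 lower in Braf (7.96% and 5.01% of all tested genes, 13% together). It called 2 higher and 2 lower in Braf Arid1a (2.51% and 2.00% of all tested genes, 4.51% together). In Braf Arid2 it called 3 higher and 0 lower (1.41% and 1.96% of all tested genes, 3.37% together), and in Braf Smarcb1 1 higher and 2 lower (1.80% and 2.05% of all tested genes, 3.85% together). Under vehicle, Arid1a loss called 6 higher and 0 lower (4.25% and 5.31% of all tested genes, 9.56% together). The Arid2 label called 1 higher and 0 lower (2.33% and 1.28% of all tested genes, 3.61% together). Smarcb1 loss called 10 higher and 6 lower (14.4% and 14.2% of all tested genes, 28.6% together). Without mutant Braf, Arid1a knockout against wild type called 0 higher and 8 lower (6.84% and 11.8% of all tested genes, 18.6% together). Braf Arid1a vehicle against Arid1a knockout called 12 higher and 5 lower (21.3% and 19.2% of all tested genes, 40.5% together). The share of members called was near the background in Braf vehicle against wild type, with CKI in Braf and with the Arid2 label. It was above the background in the other comparisons, by few genes in most of them, and no set test was run.

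**Figure D1:**
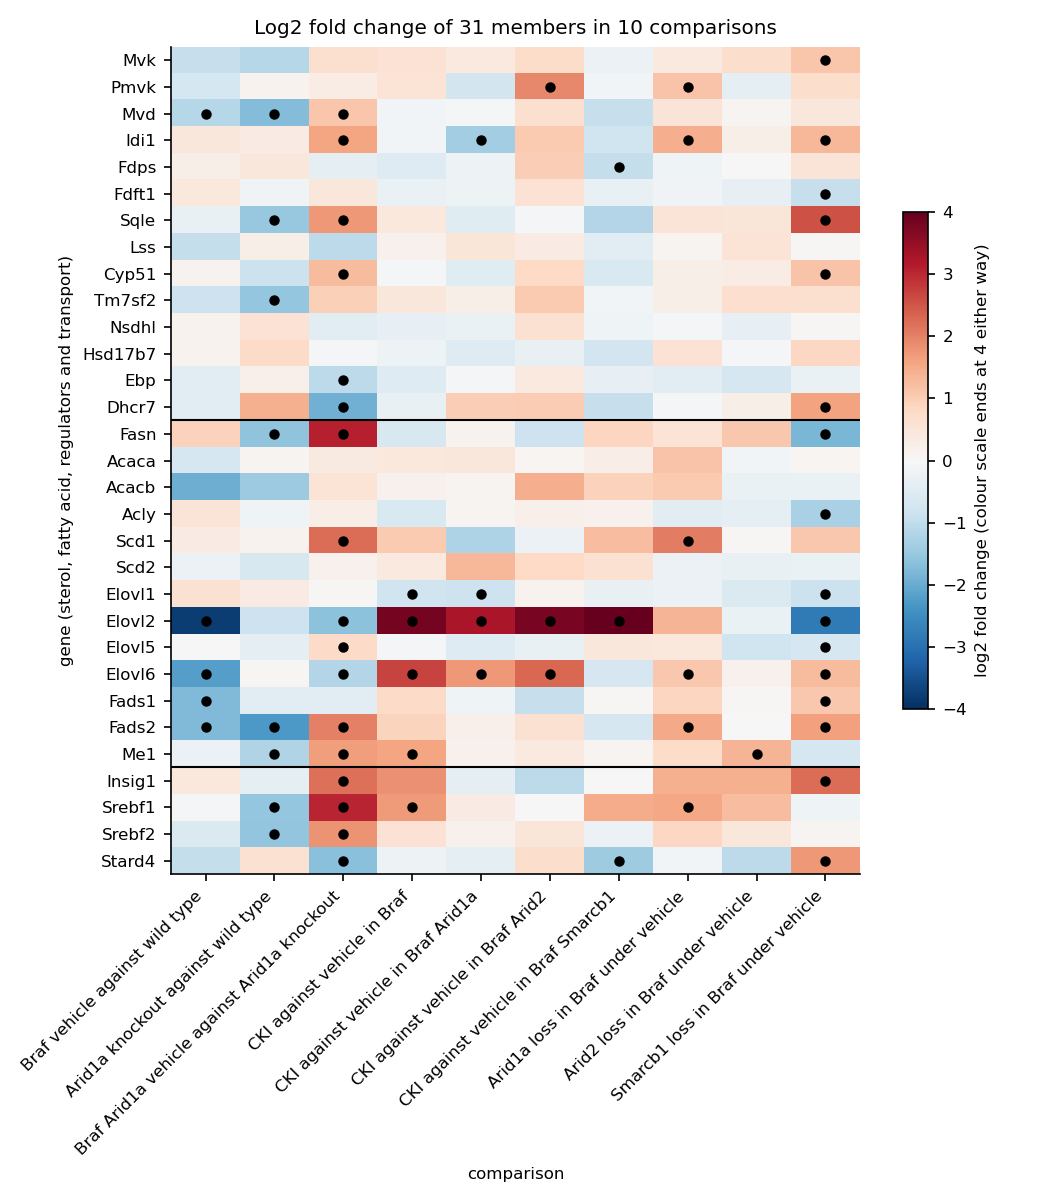
Log2 fold changes of the 31 members (rows, in the order sterol synthesis, fatty acid synthesis, regulators and transport, split by lines) in the 10 comparisons of 2 groups (columns), red for higher and blue for lower in the first named group, with a black dot where the edgeR adjusted p was under 0.05. The rows of Elovl2 and Elovl6 carry 7 dots each, and the columns of Smarcb1 loss and of Braf Arid1a vehicle against Arid1a knockout carry 16 and 17.

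Whether the drug changed a member differently by genotype was tested as a difference of drug responses. Against the Braf response, the Braf Arid1a response differed for 0 members (0% of all tested genes were called by edgeR, 7 of 31 members and 2018 of 19016 genes had an unadjusted p under 0.05, and DESeq2 called 0 members). The response in the libraries labelled Braf Arid2 was higher for 1 member, Fdps (1.47% of all tested genes higher, 7.19% lower, 8.66% together). The Braf Smarcb1 response was lower for 1 member, Elovl6 (0.110% higher, 0.195% lower, 0.305% together). The comparisons with Braf vehicle share its 3 libraries, so their values for one gene are not independent.

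Over all members, the median log2 fold change was -0.28 in Braf vehicle against wild type, 0.19 with CKI in Braf, 0.51 with Arid1a loss and 0.46 with Smarcb1 loss, where the medians over all tested genes were -0.03, -0.01, 0.00 and 0.03. With Smarcb1 loss 12 of 14 sterol enzymes had a positive fold change (median 0.67) and 5 of 13 fatty acid enzymes did (median -0.26); the difference between the 2 sets was not tested. The mean sterol enzyme level, as log2 of CPM plus 1, was 5.58, 5.39 and 4.59 in the Braf Smarcb1 vehicle libraries and 4.51 to 4.66 in Braf vehicle, so library 3 lay within the Braf range. The mean fatty acid enzyme level was 5.69, 5.53 and 4.96 against 5.33 to 5.87, and there library 3 alone lay below Braf. With CKI in Braf Smarcb1, 0 of 14 sterol enzymes had a positive fold change (median -0.53). The mean sterol enzyme level under CKI was 4.71, 4.65 and 4.78, below vehicle libraries 1 and 2 and above vehicle library 3. Of the sterol enzymes, 12 of 14 had one with CKI in the libraries labelled Braf Arid2 (median 0.68).

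Markers of other cells moved with the same comparisons. Between wild type and Braf vehicle, thyroid follicular cell markers fell in 7 of 8 (summed CPM 60642 to 158358 against 408 to 1163), endothelial markers fell in 6 of 6 (1703 to 2589 against 22 to 575) and fibroblast markers rose in 5 of 6 (722 to 1417 against 877 to 21465). Parathyroid and C cell markers fell there in 5 of 6 and rose in 1, and leukocyte markers rose in 3 of 7. With CKI in Braf, thyroid markers rose in 7 of 8 (to 8889.5 to 22020.0) and leukocyte markers fell in 7 of 7 (from 773 to 1389 to 153 to 293), and genes of dissociation stress rose in 5 of 10. Thyroid markers also rose with CKI in 7 of 8 in Braf Arid1a, 5 of 8 in the libraries labelled Braf Arid2 and 5 of 8 in Braf Smarcb1. With Arid1a loss under vehicle, fibroblast markers fell in 5 of 6 (877 to 21465 against 321 to 778) and endothelial markers in 4 of 6 (22 to 575 against 39.8 to 56). Leukocyte markers moved in 0 of 7 there. With Smarcb1 loss under vehicle, thyroid markers fell in 5 of 8 and rose in 1, and endothelial markers fell in 5 of 6 and fibroblast markers in 3 of 6. Leukocyte markers fell there in 4 of 7 (773 to 1389 against 117 to 362) and adipocyte markers in 5 of the 8 tested (43.2 to 223 against 2.58 to 13.6). The highest level in any library was 4.23 CPM for Adipoq, 0.710 CPM for Plin1, 5.85 CPM for Cidec, 0.240 CPM for Lep and 1.43 CPM for Retn. It was 14 CPM for Pck1, 26.5 CPM for Cfd, 26.8 CPM for Pparg, 27.2 CPM for Lipe and 367 CPM for Fabp4, which macrophages and endothelial cells also express. Schwann cell markers fell in 4 of 5 with Smarcb1 loss (294 to 581 against 58.3 to 93.8) and in 3 of 5 with Arid1a loss (161 to 179). When leukocyte marker level entered the model as a covariate, 4 of the 5 calls held in Braf vehicle against wild type, 2 of 5 with CKI in Braf, 2 of 4 in Braf Arid1a, 2 of 3 in the libraries labelled Braf Arid2, 3 of 3 in Braf Smarcb1, 5 of 6 with Arid1a loss, 0 of 1 with the Arid2 label and 5 of 16 with Smarcb1 loss. Over all genes the same covariate moved the calls from 2466 to 94 with CKI in Braf and from 5433 to 1918 with Smarcb1 loss, so the losses were not limited to the members. The leukocyte marker level, as mean log2 of CPM plus 1, was 6.40 to 7.26 in Braf vehicle. It was 3.78 to 4.87 in Braf CKI and 3.85 to 5.59 in Braf Smarcb1 vehicle. Where this level lies apart between groups, the fit can hardly tell covariate and group apart. A lost call there does not decide the leukocyte part. Several lost calls with Smarcb1 loss kept their log2 fold change, such as Acly (-1.32 with the covariate, -1.29 without) and Elovl1 (-0.88 and -0.87). The part of the thyroid, endothelial, fibroblast, Schwann cell and stress gene levels in these results was not tested.

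Elovl2, the elongase that carries polyunsaturated fatty acids to the docosahexaenoic acid precursors, was low in every vehicle-treated Braf thyroid and higher under CKI in all 4 genotypes. Elovl2 was at 69.3, 64.9 and 30.7 CPM in wild type and 36.7, 25.3 and 31.5 CPM in Arid1a knockout libraries. Under vehicle, Elovl2 was at 4.38, 3.98 and 3.50 in Braf, 12.7, 5.09 and 12.4 in Braf Arid1a, 2.55 and 4.01 in Braf Arid2 and 0.712, 0.654 and 0.293 CPM in Braf Smarcb1. Under CKI, Elovl2 was at 95.3, 27.5 and 45.2 in Braf, 151, 58.5 and 83.5 in Braf Arid1a, 42.4 and 49.4 in Braf Arid2 and 12.5, 14.9 and 5.90 CPM in Braf Smarcb1. Under CKI every library lay above every vehicle library of its genotype, and the Braf Smarcb1 libraries were the lowest both under vehicle and under CKI.

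Elovl2 was lower in Braf vehicle than in wild type (log2 fold change -3.80 with SE 0.51, adjusted p = 2.10e-05). It rose with CKI in Braf (log2 fold change 3.82 with SE 0.51, adjusted p = 1.73e-04) and in Braf Arid1a (log2 fold change 3.28 with SE 0.50, adjusted p = 8.51e-04). It also rose in the libraries labelled Braf Arid2 (log2 fold change 3.81 with SE 0.63, adjusted p = 0.00188) and in Braf Smarcb1 (log2 fold change 4.31 with SE 0.54, adjusted p = 3.74e-04). Smarcb1 loss lowered it further under vehicle (log2 fold change -2.82 with SE 0.52, adjusted p = 5.02e-04). The 3 differences of its drug response from that of Braf were -0.55 (SE 0.65) for Braf Arid1a, -0.02 (SE 0.74) for the libraries labelled Braf Arid2 and 0.48 (SE 0.67) for Braf Smarcb1 on the log2 scale, and none passed the test. The call in the libraries labelled Braf Arid2 was lost without Braf Arid2 vehicle library 2 (adjusted p = 0.0668), and that with CKI in Braf Smarcb1 with only the compared groups fitted (adjusted p = 0.0622).

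Elovl6, which lengthens palmitate-length chains to stearate-length chains, was low in vehicle-treated Braf thyroids and high under CKI in every genotype but Braf Smarcb1. Elovl6 was at 143, 129 and 98.8 CPM in wild type and 166, 96.2 and 123 CPM in Arid1a knockout libraries. Under vehicle, Elovl6 was at 25, 28.7 and 27.1 in Braf, 73.5, 40.2 and 56.6 in Braf Arid1a, 33.9 and 27.2 in Braf Arid2 and 88.8, 53.2 and 53.8 CPM in Braf Smarcb1. Under CKI, Elovl6 was at 229, 149.8 and 148 in Braf, 264, 126 and 175 in Braf Arid1a, 132 and 166 in Braf Arid2 and 43.9, 45 and 32.9 CPM in Braf Smarcb1. In Braf, Braf Arid1a and the libraries labelled Braf Arid2, every CKI library lay above every vehicle library, and in Braf Smarcb1 every CKI library lay below every vehicle library.

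Elovl6 was lower in Braf vehicle than in wild type (log2 fold change -2.20 with SE 0.31, adjusted p = 3.07e-05). It rose with CKI in Braf (log2 fold change 2.71 with SE 0.31, adjusted p = 3.45e-05), in Braf Arid1a (log2 fold change 1.73 with SE 0.30, adjusted p = 0.00266) and in the libraries labelled Braf Arid2 (log2 fold change 2.29 with SE 0.38, adjusted p = 0.00188). Its response had a log2 fold change of -0.69 (adjusted p = 0.219) in Braf Smarcb1. The drug response in Braf Smarcb1 differed from that in Braf (log2 difference of responses -3.39 with SE 0.43, adjusted p = 0.00104), and this call held in every alternative analysis and with each library left out. Under vehicle, Elovl6 was higher with Arid1a loss (log2 fold change 1.08 with SE 0.30, adjusted p = 0.0257) and with Smarcb1 loss (log2 fold change 1.28 with SE 0.30, adjusted p = 0.00312) than in Braf alone. The Arid1a loss call was lost without Braf vehicle library 2, 4 or 5 or Braf Arid1a vehicle library 1 or 3 (adjusted p = 0.0528 to 0.153), and with the replicate block and with only the compared groups fitted (adjusted p = 0.0718 to 0.111). The Smarcb1 loss call was lost with the leukocyte covariate (adjusted p = 0.0791).

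**Figure D2:**
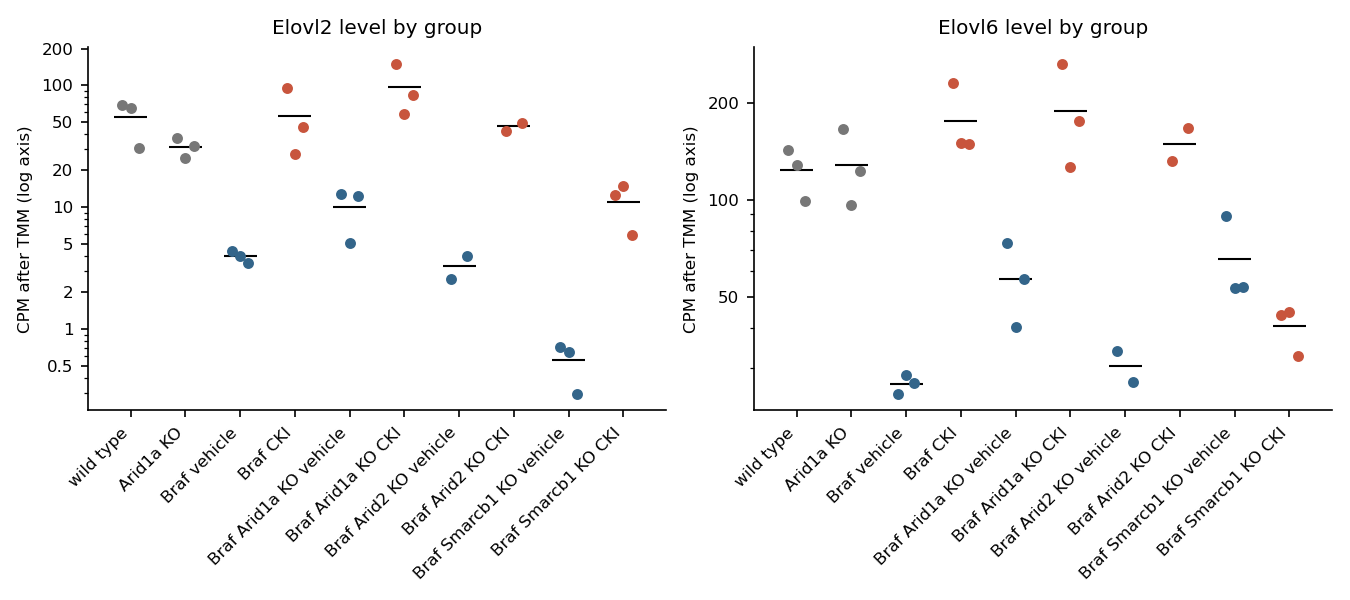
Elovl2 (left) and Elovl6 (right) in CPM after TMM scaling on log axes, 1 point per library, grey for untreated, blue for vehicle and red for CKI groups, with a bar at the group mean. The Elovl2 points rise from vehicle to CKI in all 4 Braf genotypes, and the Elovl6 points do so in 3 and lie lower under CKI in Braf Smarcb1.

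Elovl1 and Elovl5, elongases of saturated very long chains and of polyunsaturated chains, moved little. Elovl1 fell with CKI in Braf, from 363, 241 and 198 to 149, 159 and 153 CPM (log2 fold change -0.80 with SE 0.23, adjusted p = 0.0247), and in Braf Arid1a, from 225, 236 and 224 to 127, 143 and 117 CPM (log2 fold change -0.83 with SE 0.23, adjusted p = 0.0379). It was also lower with Smarcb1 loss under vehicle, at 150.1, 127 and 163 CPM (log2 fold change -0.87 with SE 0.23, adjusted p = 0.00659). These groups did not overlap. The nearest libraries were at 198 and 159 CPM with CKI in Braf and at 198 and 163 CPM with Smarcb1 loss. With CKI in Braf Arid1a they were further apart, at 224 and 143 CPM. The Braf call was lost without Braf vehicle library 2 or Braf CKI library 1, 4 or 5 (adjusted p = 0.0583 to 0.231), and without the filter on low counts, with the leukocyte covariate and with only the compared groups fitted (adjusted p = 0.0505 to 0.324). The Braf Arid1a call was lost without Braf Arid1a vehicle library 1, 2 or 3 or Braf Arid1a CKI library 2, 4 or 5 (adjusted p = 0.0545 to 0.128), and with RLE size factors, without the filter on low counts, with the replicate block, with the leukocyte covariate and with the GC and length offsets (adjusted p = 0.0522 to 0.193). The Smarcb1 loss call was lost without Braf vehicle library 2 (adjusted p = 0.108), and with the leukocyte covariate and with only the compared groups fitted (adjusted p = 0.068 to 0.105). Without Braf vehicle library 2 the Elovl1 log2 fold change was -0.45 with CKI in Braf and -0.49 with Smarcb1 loss. Elovl5 was lower with Smarcb1 loss, at 104, 96.8 and 86.3 CPM against 169, 143 and 149.6 CPM (log2 fold change -0.68 with SE 0.23, adjusted p = 0.0307), a call that was lost without Braf vehicle library 2 or Braf Smarcb1 vehicle library 2 or 3 (adjusted p = 0.0717 to 0.145), and without the filter on low counts, with the replicate block, with the adipocyte covariate, with the leukocyte covariate and with only the compared groups fitted (adjusted p = 0.0619 to 0.119).

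Fads1 and Fads2, the desaturases that make polyunsaturated fatty acids, were both lower in vehicle-treated Braf thyroids than in wild type. Fads1 was at 43.3, 98 and 64.5 CPM in wild type and 59.2, 50.8 and 42.2 CPM in Arid1a knockout libraries. Under vehicle, Fads1 was at 15.4, 21.7 and 24 in Braf, 30.4, 40.6 and 40.9 in Braf Arid1a, 28.1 and 13.6 in Braf Arid2 and 52.5, 49.8 and 25.9 CPM in Braf Smarcb1. Under CKI, Fads1 was at 40.9, 29.9 and 32.3 in Braf, 23.1, 41.8 and 34 in Braf Arid1a, 7.36 and 14.8 in Braf Arid2 and 39.3, 36.6 and 57.4 CPM in Braf Smarcb1. In wild type the lowest library was above every Braf vehicle library.

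Fads2 was at 35.7, 73.9 and 52.3 CPM in wild type and 8.01, 20.5 and 4.77 CPM in Arid1a knockout libraries. Under vehicle, Fads2 was at 16.6, 12.7 and 18.1 in Braf, 33.5, 45.4 and 56.8 in Braf Arid1a, 22.9 and 8.94 in Braf Arid2 and 72.4, 37.7 and 36.7 CPM in Braf Smarcb1. Under CKI, Fads2 was at 28.6, 24.1 and 35.4 in Braf, 49.2, 72 and 34.4 in Braf Arid1a, 21.4 and 26.6 in Braf Arid2 and 30.7, 23.6 and 38.1 CPM in Braf Smarcb1. The Braf vehicle libraries again lay below all wild-type libraries, and the Braf Arid1a vehicle libraries lay above all Braf vehicle libraries. Fads1 was lower in Braf vehicle than in wild type (log2 fold change -1.75 with SE 0.36, adjusted p = 0.00151), as was Fads2 (log2 fold change -1.78 with SE 0.45, adjusted p = 0.00782), and both calls held in every alternative. With Smarcb1 loss under vehicle, Fads1 (log2 fold change 1.07 with SE 0.36, adjusted p = 0.028) and Fads2 (log2 fold change 1.63 with SE 0.45, adjusted p = 0.00949) were higher. Fads2 was also higher with Arid1a loss (log2 fold change 1.52 with SE 0.45, adjusted p = 0.0353). The Fads1 call with Smarcb1 loss was lost without Braf vehicle library 2 or 4 or Braf Smarcb1 vehicle library 1 or 2 (adjusted p = 0.06 to 0.103), and with the adipocyte covariate, with the leukocyte covariate and with only the compared groups fitted (adjusted p = 0.0854 to 0.422). The Fads2 call with Smarcb1 loss was lost without Braf Smarcb1 vehicle library 1 (adjusted p = 0.0611), and with the adipocyte covariate and with the leukocyte covariate (adjusted p = 0.134 to 0.14). The Fads2 call with Arid1a loss was lost without Braf vehicle library 2, 4 or 5 or Braf Arid1a vehicle library 1, 2 or 3 (adjusted p = 0.0554 to 0.132), and with the replicate block and with the adipocyte covariate (adjusted p = 0.0653 to 0.0832).

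Fasn, the fatty acid synthase itself, did not pass the test between Braf vehicle and wild type or with CKI in any genotype, and was lower with Smarcb1 loss. Fasn was at 102, 115 and 83.9 CPM in wild type and 22.7, 46.7 and 29.2 CPM in Arid1a knockout libraries. Under vehicle, Fasn was at 121, 301 and 154 in Braf, 128, 280.2 and 436 in Braf Arid1a, 558 and 246 in Braf Arid2 and 60.2, 57.1 and 44.1 CPM in Braf Smarcb1. Under CKI, Fasn was at 59.3, 111 and 202 in Braf, 334, 326 and 273 in Braf Arid1a, 145 and 306 in Braf Arid2 and 98.5, 43.9 and 149 CPM in Braf Smarcb1. The Braf Smarcb1 vehicle libraries all lay below the Braf vehicle libraries (log2 fold change -1.84 with SE 0.51, adjusted p = 0.00947). Acly, which makes cytosolic acetyl-CoA from citrate, was also lower with Smarcb1 loss, at 329, 274 and 104 CPM against 398, 849 and 484 CPM (log2 fold change -1.29 with SE 0.36, adjusted p = 0.0102). The Fasn call was lost without Braf vehicle library 4 (adjusted p = 0.0564), and with the replicate block and with the leukocyte covariate (adjusted p = 0.0955 to 0.149). The Acly call was lost without Braf vehicle library 4 (adjusted p = 0.0678), and with the leukocyte covariate and with only the compared groups fitted (adjusted p = 0.0971 to 0.125).

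Scd1, the stearoyl-CoA desaturase, was higher with Arid1a loss, at 685, 149 and 495 CPM against 102, 118 and 105 CPM (log2 fold change 2.03 with SE 0.61, adjusted p = 0.0394). The spread among the Braf Arid1a libraries was wide, and the call was lost without Braf vehicle library 2, 4 or 5 or Braf Arid1a vehicle library 1 or 3 (adjusted p = 0.085 to 0.183), and with the adipocyte covariate, with the leukocyte covariate and with only the compared groups fitted (adjusted p = 0.0553 to 0.121). Some reads of Scd1 to Scd4, which are paralogs, may have been shared between them. Acaca and Acacb, the acetyl-CoA carboxylases, and Scd2 were called in 0 of 10 comparisons, with ranges over all libraries of 3.21 to 25.3, 0 to 8.58 and 113 to 944 CPM.

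Me1, the malic enzyme that supplies reducing power for lipid synthesis, rose with CKI in Braf. Me1 was at 44.8, 73.9 and 60.9 CPM in wild type and 32.4, 32 and 13.9 CPM in Arid1a knockout libraries. Under vehicle, Me1 was at 49, 40.6 and 61.8 in Braf, 71.8, 103 and 75 in Braf Arid1a, 64.4 and 194 in Braf Arid2 and 28.8, 31.6 and 35.3 CPM in Braf Smarcb1. Under CKI, Me1 was at 169, 161 and 120.1 in Braf, 87.4, 79.6 and 116 in Braf Arid1a, 174 and 166 in Braf Arid2 and 31, 45.5 and 26.6 CPM in Braf Smarcb1. All Braf CKI libraries were above all Braf vehicle libraries (log2 fold change 1.57 with SE 0.35, adjusted p = 0.00865), and the call was lost with the leukocyte covariate (adjusted p = 0.291). Me1 was also higher in the vehicle libraries labelled Braf Arid2 than in Braf vehicle (log2 fold change 1.36 with SE 0.38, adjusted p = 0.0473). Of those 2 libraries, number 4 lay above every Braf CKI library and number 2 just above Braf vehicle. This call was lost without Braf vehicle library 2, 4 or 5 or Braf Arid2 vehicle library 4 (adjusted p = 0.0512 to 0.697), and with RLE size factors, without the filter on low counts, with the replicate block, with the adipocyte covariate, with the leukocyte covariate, with the GC and length offsets and with only the compared groups fitted (adjusted p = 0.0542 to 0.202). Without Braf Arid2 vehicle library 4 the log2 fold change was 0.32.

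Sqle, the squalene epoxidase that commits squalene to sterols and is a rate-limiting step of the pathway, was the sterol enzyme that rose most with Smarcb1 loss. Sqle was at 18.4, 33.8 and 36.7 CPM in wild type and 9.29, 14.6 and 7.36 CPM in Arid1a knockout libraries. Under vehicle, Sqle was at 24.3, 19.4 and 29.4 in Braf, 34.2, 22.4 and 47.3 in Braf Arid1a, 48.8 and 19.5 in Braf Arid2 and 191, 196 and 44.9 CPM in Braf Smarcb1. Under CKI, Sqle was at 41.7, 23.3 and 32.8 in Braf, 34.2, 19.9 and 19.8 in Braf Arid1a, 34.9 and 30.0 in Braf Arid2 and 70.7, 55.1 and 67.5 CPM in Braf Smarcb1. Braf Smarcb1 vehicle libraries 1 and 2 were far above every other library, and library 3 was above all Braf vehicle libraries but below the Braf Smarcb1 CKI libraries. The rise with Smarcb1 loss under vehicle (log2 fold change 2.56 with SE 0.47, adjusted p = 4.36e-04) held in every alternative and with each library left out. With CKI in Braf Smarcb1 the log2 fold change was -1.16 (adjusted p = 0.159).

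**Figure D3:**
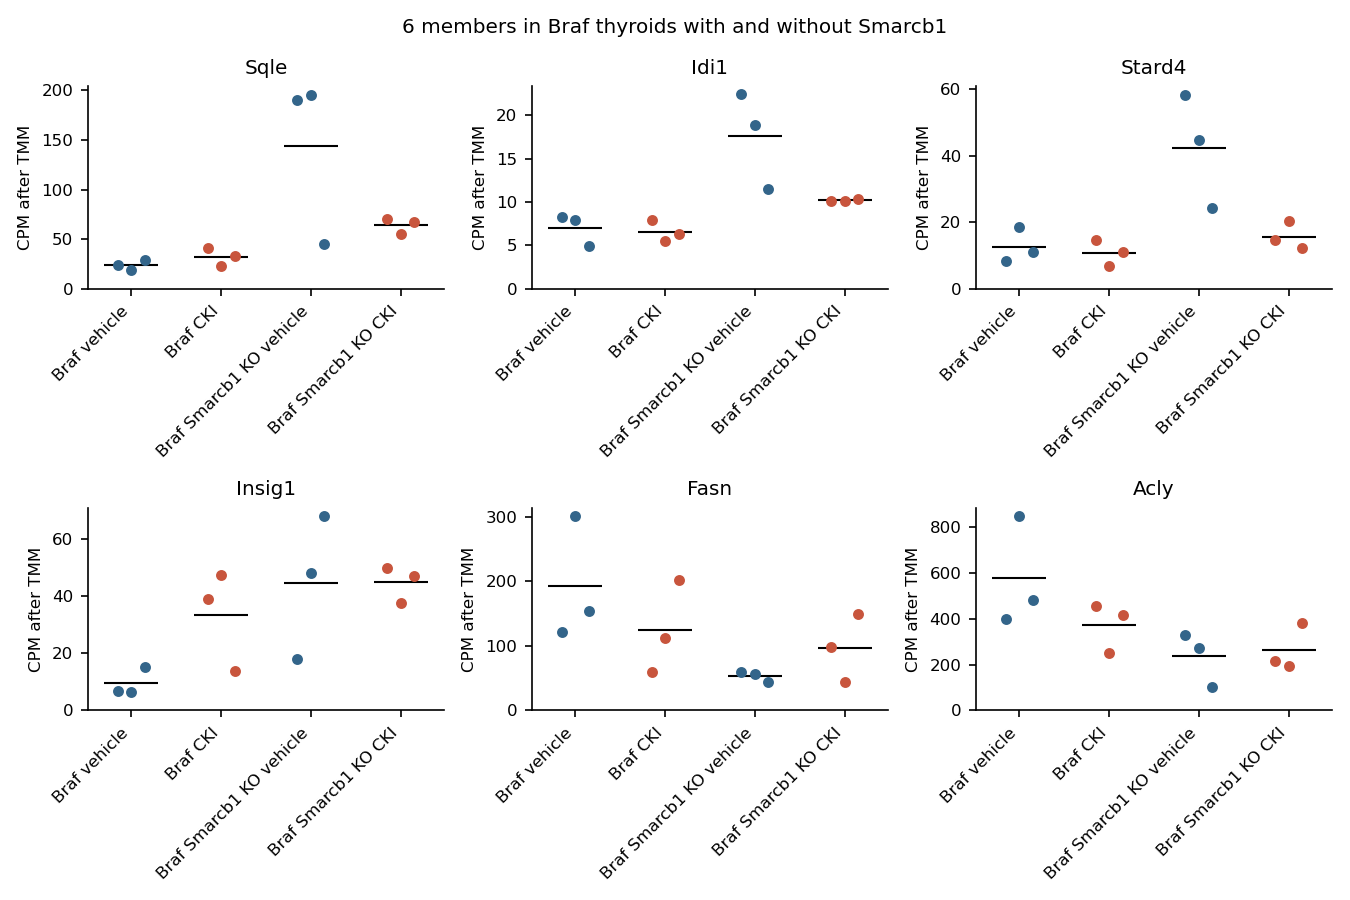
Levels of Sqle, Idi1, Stard4, Insig1, Fasn and Acly in CPM after TMM scaling, 1 point per library, blue for vehicle and red for CKI, with a bar at the group mean, in Braf and Braf Smarcb1 thyroids. Sqle, Idi1, Stard4 and Insig1 were higher and Fasn and Acly lower in Braf Smarcb1 vehicle than in Braf vehicle.

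Idi1, the isomerase of the isoprenoid building blocks, was higher with Arid1a loss and with Smarcb1 loss and fell with CKI in Braf Arid1a. Idi1 was at 4.29, 4.92 and 6.27 CPM in wild type and 6.93, 4.25 and 8.24 CPM in Arid1a knockout libraries. Under vehicle, Idi1 was at 8.25, 7.96 and 4.99 in Braf, 17.2, 17.8 and 23.4 in Braf Arid1a, 7.91 and 8.86 in Braf Arid2 and 22.5, 18.9 and 11.6 CPM in Braf Smarcb1. Under CKI, Idi1 was at 7.92, 5.52 and 6.34 in Braf, 7.20, 6.04 and 8.88 in Braf Arid1a, 17 and 17.4 in Braf Arid2 and 10.1, 10.1 and 10.4 CPM in Braf Smarcb1. All Braf Arid1a and Braf Smarcb1 vehicle libraries lay above all Braf vehicle libraries, and the Braf Arid1a CKI libraries were near the range of Braf vehicle. Idi1 rose with Arid1a loss (log2 fold change 1.46 with SE 0.30, adjusted p = 0.00416), a call that held in every alternative, and with Smarcb1 loss (log2 fold change 1.32 with SE 0.30, adjusted p = 0.00253). It fell with CKI in Braf Arid1a (log2 fold change -1.40 with SE 0.30, adjusted p = 0.0107). The Smarcb1 loss call was lost with the adipocyte covariate, with the leukocyte covariate and with only the compared groups fitted (adjusted p = 0.062 to 0.0666). The call with CKI in Braf Arid1a was lost without Braf Arid1a vehicle library 3 (adjusted p = 0.0601), and with the replicate block, with the leukocyte covariate and with only the compared groups fitted (adjusted p = 0.0535 to 0.119). The difference of drug response between Braf Arid1a and Braf was -1.30 on the log2 scale (adjusted p = 0.297).

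Pmvk, the phosphomevalonate kinase, rose with CKI in the libraries labelled Braf Arid2 and was higher with Arid1a loss. Pmvk was at 40.6, 28.3 and 31.7 CPM in wild type and 42.1, 31.7 and 35.9 CPM in Arid1a knockout libraries. Under vehicle, Pmvk was at 27, 16.1 and 18 in Braf, 43.5, 38.8 and 53.3 in Braf Arid1a, 16.7 and 14.9 in Braf Arid2 and 44.2, 27.1 and 27.7 CPM in Braf Smarcb1. Under CKI, Pmvk was at 36.9, 31.8 and 21.4 in Braf, 20.3, 24.3 and 36.9 in Braf Arid1a, 74.8 and 45.6 in Braf Arid2 and 28.3, 28.4 and 34.1 CPM in Braf Smarcb1. Both libraries labelled Braf Arid2 CKI were above both of the matching vehicle libraries (log2 fold change 1.93 with SE 0.36, adjusted p = 0.00548), and all Braf Arid1a vehicle libraries were above all Braf vehicle libraries (log2 fold change 1.15 with SE 0.29, adjusted p = 0.0151). With 2 libraries a group, the first call was lost without Braf Arid2 vehicle library 2 or 4 or Braf Arid2 CKI library 3 (adjusted p = 0.0545 to 0.156), and with the leukocyte covariate (adjusted p = 0.0542). The second call was lost without Braf vehicle library 4 or 5 or Braf Arid1a vehicle library 1 or 3 (adjusted p = 0.0553 to 0.0973), and with the replicate block, with the adipocyte covariate and with only the compared groups fitted (adjusted p = 0.0516 to 0.0931).

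Fdps, which makes farnesyl diphosphate for sterols and for prenylation, fell with CKI in Braf Smarcb1, and its response in the libraries labelled Braf Arid2 differed from that in Braf. Fdps was at 54.2, 60.7 and 54.3 CPM in wild type and 84.9, 56 and 90.4 CPM in Arid1a knockout libraries. Under vehicle, Fdps was at 91.6, 52.9 and 55.9 in Braf, 55.9, 50.9 and 69.5 in Braf Arid1a, 63.2 and 67.9 in Braf Arid2 and 113, 105 and 68.3 CPM in Braf Smarcb1. Under CKI, Fdps was at 53.9, 43.4 and 44.2 in Braf, 58.8, 42 and 51.4 in Braf Arid1a, 152 and 107 in Braf Arid2 and 47.5, 54.2 and 46.8 CPM in Braf Smarcb1. The fall in Braf Smarcb1 left every CKI library below every vehicle library (log2 fold change -0.95 with SE 0.25, adjusted p = 0.033). In the libraries labelled Braf Arid2 the log2 fold change with CKI was 0.98 (adjusted p = 0.0746). The response in the libraries labelled Braf Arid2 differed (log2 difference of responses 1.48 with SE 0.39, adjusted p = 0.0241) from that in Braf, where the log2 fold change was -0.50. This difference was lost without Braf vehicle library 2 or Braf CKI library 4 or Braf Arid2 vehicle library 2 or 4 or Braf Arid2 CKI library 3 or 4 (adjusted p = 0.051 to 0.193), and with the GC and length offsets and with only the compared groups fitted (adjusted p = 0.0596 to 0.0644). The call in Braf Smarcb1 was lost without Braf Smarcb1 vehicle library 1 or 2 or Braf Smarcb1 CKI library 1, 2 or 4 (adjusted p = 0.0913 to 0.179), and without the filter on low counts, with the replicate block, with the adipocyte covariate, with the GC and length offsets and with only the compared groups fitted (adjusted p = 0.0577 to 0.151).

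Fdft1, the squalene synthase, stood below Braf vehicle in Braf Smarcb1 vehicle. Fdft1 was at 98.9, 97 and 107 CPM in wild type and 107, 72.7 and 91.8 CPM in Arid1a knockout libraries. Under vehicle, Fdft1 was at 186, 99.8 and 122 in Braf, 139, 111 and 120.0 in Braf Arid1a, 97.6 and 117 in Braf Arid2 and 80.5, 67.9 and 66.2 CPM in Braf Smarcb1. Under CKI, Fdft1 was at 114, 122 and 105 in Braf, 99.9, 117 and 104 in Braf Arid1a, 167 and 153 in Braf Arid2 and 53.5, 73.3 and 48.8 CPM in Braf Smarcb1. The Braf Smarcb1 vehicle libraries lay below all Braf vehicle libraries (log2 fold change -0.93 with SE 0.22, adjusted p = 0.00346), and library 2 of Braf vehicle was the highest of all. The call was lost without Braf vehicle library 2 (adjusted p = 0.0752), and with only the compared groups fitted (adjusted p = 0.083). Without Braf vehicle library 2 the log2 fold change was -0.54.

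Mvd, the decarboxylase that ends the mevalonate segment, was lower in Braf vehicle than in wild type. Mvd was at 36.3, 50.6 and 36.2 CPM in wild type and 8.13, 21 and 7.90 CPM in Arid1a knockout libraries. Under vehicle, Mvd was at 20.6, 16.3 and 19.2 in Braf, 24.1, 26.3 and 29.4 in Braf Arid1a, 20.3 and 19.7 in Braf Arid2 and 31.8, 34.5 and 10.9 CPM in Braf Smarcb1. Under CKI, Mvd was at 21.7, 14.3 and 16.4 in Braf, 34.1, 17.4 and 23.7 in Braf Arid1a, 38.2 and 24.3 in Braf Arid2 and 15.1, 15.8 and 10.3 CPM in Braf Smarcb1. The Braf vehicle libraries lay below the wild-type libraries (log2 fold change -1.14 with SE 0.39, adjusted p = 0.0425), and the call was lost without Braf vehicle library 2, 4 or 5 or wild-type library 1, 2 or 3 (adjusted p = 0.0614 to 0.161), and without the filter on low counts, with the replicate block and with the leukocyte covariate (adjusted p = 0.065 to 0.178). Ebp, a sterol isomerase late in the pathway, was not called in any comparison within the Braf genotypes. Ebp was at 103, 89 and 88.6 CPM in wild type and 104, 91.5 and 125 CPM in Arid1a knockout libraries. Under vehicle, Ebp was at 83.5, 66.6 and 59.8 in Braf, 51.5, 51.3 and 51.6 in Braf Arid1a, 42.8 and 44.6 in Braf Arid2 and 64.9, 49.1 and 61.8 CPM in Braf Smarcb1. Under CKI, Ebp was at 38.9, 58.2 and 49.4 in Braf, 55.4, 56.8 and 37.4 in Braf Arid1a, 63.9 and 49.7 in Braf Arid2 and 38.9, 47.7 and 53.4 CPM in Braf Smarcb1. Its wild-type and Arid1a knockout libraries were the highest and those with mutant Braf the lowest.

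Of the other sterol enzymes, Cyp51, the lanosterol demethylase, was higher with Smarcb1 loss at 119, 124 and 66.8 CPM against 42.2, 54 and 45.1 CPM (log2 fold change 1.13 with SE 0.32, adjusted p = 0.0116). Dhcr7, the reductase of a last step to cholesterol, was higher at 36.8, 29.8 and 10.1 CPM against 4.69, 13.3 and 7.23 CPM (log2 fold change 1.60 with SE 0.52, adjusted p = 0.0247), with groups that overlapped. Mvk, the mevalonate kinase, was higher at 28.9, 26 and 13.5 CPM against 11.3, 9.66 and 10.5 CPM (log2 fold change 1.12 with SE 0.41, adjusted p = 0.0437). Library 3 of Braf Smarcb1 vehicle was the lowest of its group for all 3. The Cyp51 call was lost without Braf Smarcb1 vehicle library 2 (adjusted p = 0.0557), and with the replicate block, with the leukocyte covariate and with only the compared groups fitted (adjusted p = 0.0509 to 0.0604). The Dhcr7 call was lost without Braf vehicle library 2 or 5 or Braf Smarcb1 vehicle library 1 or 2 (adjusted p = 0.0715 to 0.115), and with the replicate block and with only the compared groups fitted (adjusted p = 0.0959 to 0.175). The Mvk call was lost without Braf vehicle library 2, 4 or 5 or Braf Smarcb1 vehicle library 1 or 2 (adjusted p = 0.0547 to 0.156), and without the filter on low counts, with the replicate block, with the leukocyte covariate and with only the compared groups fitted (adjusted p = 0.0735 to 0.28). Lss, Nsdhl and Hsd17b7 were called in 0 of 10 comparisons, with ranges over all libraries of 6.06 to 37.1, 19.9 to 50.7 and 11.1 to 38.5 CPM, and Tm7sf2 was called in 1, in the Arid1a knockout against wild type.

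Srebf1, which encodes the SREBP that favours fatty acid genes, rose with CKI in Braf and was higher with Arid1a loss. Srebf1 was at 64, 136 and 60.8 CPM in wild type and 18.4, 55 and 16.2 CPM in Arid1a knockout libraries. Under vehicle, Srebf1 was at 77.7, 60.0 and 116 in Braf, 199.6, 313 and 235 in Braf Arid1a, 246 and 151 in Braf Arid2 and 89.5, 89.3 and 46 CPM in Braf Smarcb1. Under CKI, Srebf1 was at 337, 196 and 294 in Braf, 243, 165 and 526 in Braf Arid1a, 162 and 237 in Braf Arid2 and 226, 168 and 240.3 CPM in Braf Smarcb1. All Braf CKI libraries and all Braf Arid1a vehicle libraries lay above all Braf vehicle libraries. The rise with CKI (log2 fold change 1.71 with SE 0.47, adjusted p = 0.0226) was lost without Braf vehicle library 2 or 4 or Braf CKI library 1 (adjusted p = 0.0752 to 0.0859), and with the leukocyte covariate (adjusted p = 0.644). The rise with Arid1a loss (log2 fold change 1.56 with SE 0.47, adjusted p = 0.0382) was lost without Braf vehicle library 2 or 4 or Braf Arid1a vehicle library 1, 2 or 3 (adjusted p = 0.0665 to 0.149), and with the adipocyte covariate (adjusted p = 0.087).

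Srebf2, which encodes the SREBP that favours sterol genes, was not called with CKI or with any loss in Braf. Srebf2 was at 81.5, 168 and 132 CPM in wild type and 30.2, 75.8 and 22.1 CPM in Arid1a knockout libraries. Under vehicle, Srebf2 was at 60.8, 74.5 and 121 in Braf, 142, 129 and 179 in Braf Arid1a, 145 and 87.3 in Braf Arid2 and 121, 117 and 37.4 CPM in Braf Smarcb1. Under CKI, Srebf2 was at 162, 84.7 and 138 in Braf, 188, 164 and 155 in Braf Arid1a, 132 and 193 in Braf Arid2 and 70.8, 66.1 and 95.8 CPM in Braf Smarcb1. The Braf Arid1a vehicle libraries lay above the Braf vehicle libraries, but that difference missed the threshold (log2 fold change 0.81, adjusted p = 0.251). Library 3 of Braf Smarcb1 vehicle was the lowest with mutant Braf.

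Insig1, the sterol sensor that retains SREBP precursors and is itself a SREBP target, was higher with Smarcb1 loss. Insig1 was at 5.48, 7.17 and 8.64 CPM in wild type and 8.65, 4.36 and 3.47 CPM in Arid1a knockout libraries. Under vehicle, Insig1 was at 6.67, 6.51 and 15.1 in Braf, 33.2, 10.4 and 31.9 in Braf Arid1a, 24.7 and 25.7 in Braf Arid2 and 17.9, 48.1 and 67.8 CPM in Braf Smarcb1. Under CKI, Insig1 was at 38.9, 47.2 and 13.7 in Braf, 7.44, 6.58 and 44.1 in Braf Arid1a, 9.84 and 14.5 in Braf Arid2 and 49.8, 37.5 and 46.9 CPM in Braf Smarcb1. It varied widely within the Braf CKI, Braf Smarcb1 vehicle and both Braf Arid1a groups. Braf Smarcb1 vehicle was above Braf vehicle in every library (log2 fold change 2.24 with SE 0.65, adjusted p = 0.0132), and the call was lost without Braf vehicle library 4 or Braf Smarcb1 vehicle library 3 (adjusted p = 0.0539 to 0.0601), and with the adipocyte covariate and with the leukocyte covariate (adjusted p = 0.168 to 0.205).

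Stard4, which carries sterol between membranes, was higher with Smarcb1 loss and fell with CKI there. It was at 8.51, 18.5 and 11 CPM in Braf vehicle, 58.4, 44.8 and 24.2 CPM in Braf Smarcb1 vehicle and 14.7, 20.3 and 12.2 CPM in Braf Smarcb1 CKI libraries. The rise with Smarcb1 loss (log2 fold change 1.74 with SE 0.38, adjusted p = 0.00181) held in every alternative and with each library left out. The fall with CKI (log2 fold change -1.43 with SE 0.37, adjusted p = 0.0323) was lost without Braf Smarcb1 vehicle library 1 or 2 or Braf Smarcb1 CKI library 1 or 4 (adjusted p = 0.0774 to 0.184), and with the replicate block and with only the compared groups fitted (adjusted p = 0.0914 to 0.135).

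The untreated Arid1a knockout thyroids had lower levels of 8 members than wild type and higher levels of 0 (11.8% and 6.84% of all tested genes, 18.6% together). Fads2 (-2.28), Mvd (-1.73), Fasn (-1.61), Srebf2 (-1.58), Tm7sf2, a sterol reductase (-1.55), Srebf1 (-1.54), Sqle (-1.51) and Me1 (-1.20) fell on the log2 scale, with adjusted p from 0.00312 to 0.0283. Libraries 1 and 3, which stood apart in GC weight, were the lowest of the group for Srebf1, Srebf2, Mvd, Fads2, Sqle and Fasn, and library 2 lay nearer to wild type. Leaving out both libraries, a choice made after seeing the data, left 1 knockout library, so whether calls were kept there says little. The 8 log2 fold changes stayed negative and were smaller in size, from -1.39 for Fads2 to -0.66 for Srebf1. With the leukocyte covariate 0 of the 8 calls were made (adjusted p = 0.289 to 0.861), and calls over all genes went from 3538 to 3. The log2 fold changes with that covariate were -2.16 for Fads2, -1.82 for Fasn, -1.50 for Mvd, -0.93 for Me1 and -0.38 for Srebf1. With the GC and length offsets, 7 members were called and 4 of them were among the 8. Fads2 was the one call kept with each single library left out. The Mvd call was lost without Arid1a knockout library 3 (adjusted p = 0.0507). The Srebf2 call was lost without Arid1a knockout library 1 or 3 or wild-type library 2 (adjusted p = 0.0903 to 0.108). The Me1 call was lost without Arid1a knockout library 3 or wild-type library 2 (adjusted p = 0.11 to 0.156). The Tm7sf2 call was lost without Arid1a knockout library 1 or 3 or wild-type library 2 (adjusted p = 0.0827 to 0.129). The Sqle call was lost without Arid1a knockout library 1 or 3 or wild-type library 2 or 3 (adjusted p = 0.0792 to 0.137). The Srebf1 call was lost without Arid1a knockout library 1 or 3 or wild-type library 2 (adjusted p = 0.139 to 0.188). The Fasn call was lost without Arid1a knockout library 1 or 3 or wild-type library 1 or 2 (adjusted p = 0.0592 to 0.137). Leukocyte markers rose in 7 of 7 (349 to 582 summed CPM in wild type against 2203 to 3852) and fibroblast markers in 4 of 6 (722 to 1417 against 9773 to 13228). Parathyroid and C cell markers fell in 4 of 6, thyroid markers in 1 of 8 and dissociation stress genes in 3 of 10. The leukocyte marker level, as mean log2 of CPM plus 1, was 7.78 to 8.49 in the knockout and 4.73 to 5.89 in wild type. These groups lay apart, so the loss of calls with that covariate does not decide the leukocyte part. Beyond the fits with the leukocyte and the adipocyte covariate, the part of these marker levels was not examined.

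**Figure D4:**
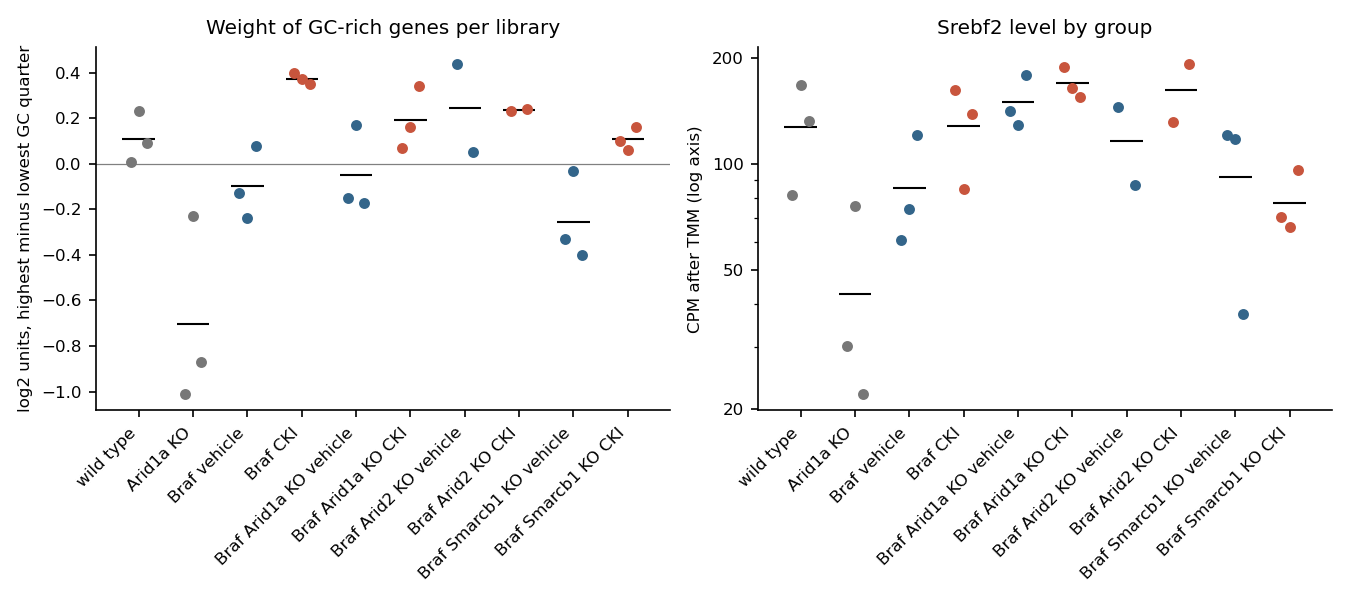
Left, the weight of GC-rich genes in each library (log2 level of genes in the top quartile of GC content minus the bottom quartile, each gene relative to its mean over all libraries); right, Srebf2 in CPM after TMM scaling on a log axis, 1 point per library, grey for untreated, blue for vehicle and red for CKI groups, bars at group means. Arid1a knockout libraries 1 and 3 lie at -1.01 and -0.87 on the left and are the lowest points on the right.

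Mutant Braf on the Arid1a knockout, compared under vehicle against the untreated knockout, gave the largest number of calls, 12 higher and 5 lower. Calls over all tested genes were also the most there (21.3% higher and 19.2% lower, 40.5% together). Fasn (log2 fold change 3.10 with SE 0.53, adjusted p = 1.18e-04), Srebf1 (log2 fold change 3.06 with SE 0.50, adjusted p = 6.89e-05) and Idi1 (log2 fold change 1.59 with SE 0.30, adjusted p = 3.05e-04) were higher and held in every alternative. Without both Arid1a knockout libraries 1 and 3, which left 1 knockout library, all 17 fold changes kept their sign. Those of Mvd and Elovl5 were then 0.38 and 0.32 on the log2 scale. Scd1 (2.23), Insig1 (2.20), Fads2 (2.03), Srebf2 (1.81), Sqle (1.73), Me1 (1.67), Cyp51 (1.25), Mvd (1.11) and Elovl5 (0.78) were higher on the log2 scale, with adjusted p from 7.59e-04 to 0.0274. Dhcr7 (-1.91), Stard4 (-1.66), Elovl2 (-1.63), Elovl6 (-1.18) and Ebp (-1.05) fell, with adjusted p from 6.16e-04 to 0.00804. The Insig1 call was lost without Arid1a knockout library 3 (adjusted p = 0.0541), the Elovl5 call without Arid1a knockout library 1 or 3 (adjusted p = 0.0603 to 0.0815) and the Mvd call without Braf Arid1a vehicle library 1, 2 or 3 or Arid1a knockout library 1 or 3 (adjusted p = 0.0518 to 0.152). Without Arid1a knockout library 2 the Mvd fold change was 1.68. With the GC and length offsets the Mvd fold change was 0.07 (adjusted p = 0.893) and that of Elovl6 -0.62 (adjusted p = 0.0828). With the leukocyte covariate 11 of the 17 were called, where calls over all genes went from 7698 to 4609. The groups also differed in treatment, since the knockout received no vehicle, and in fibroblast markers, which fell in 6 of 6 (9773 to 13228 against 321 to 778 summed CPM). Endothelial markers fell in 6 of 6, leukocyte markers in 5 of 7, thyroid markers in 4 of 8, skeletal muscle and Schwann cell markers in 3 of 5 each, and parathyroid and C cell markers in 5 of 6 with 1 higher. Dissociation stress genes rose in 5 of 10. The leukocyte marker level, as mean log2 of CPM plus 1, was 5.43 to 6.79 in Braf Arid1a vehicle and 7.78 to 8.49 in the knockout. These groups lay apart, so calls lost with that covariate do not decide the leukocyte part. Beyond the fits with the leukocyte and adipocyte covariates, the part of these levels was not examined.

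Genes of the same pathways outside the list were read beside the members. Of 16 other sterol pathway genes tested, 1 was higher and 3 lower in Braf vehicle against wild type (9.84% and 10.1% of all tested genes). With CKI in Braf 3 were higher and 1 lower (7.96% and 5.01% of all tested genes). With Smarcb1 loss 4 were higher and 0 lower (14.4% and 14.2% of all tested genes, 28.6% together). Sc4mol, the methylsterol oxidase, was at 249, 131 and 139 CPM in Braf vehicle, 526, 355 and 310.1 CPM in Braf Smarcb1 vehicle and 146, 169.8 and 154 CPM in Braf Smarcb1 CKI. It was higher with Smarcb1 loss (log2 fold change 1.20 with SE 0.25, adjusted p = 0.0015) and lower with CKI there (log2 fold change -1.34 with SE 0.25, adjusted p = 0.00491). With CKI in Braf, Sc4mol fell (-0.98), Aacs rose (2.07) and Mylip rose (1.67), with adjusted p from 0.0115 to 0.035. With Smarcb1 loss Mbtps2, a protease that activates SREBPs, was higher (log2 fold change 1.0, adjusted p = 0.0191).

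Of 20 other fatty acid pathway genes tested, 2 were higher and 4 lower in Braf vehicle against wild type (9.84% and 10.1% of all tested genes). With CKI in Braf 5 were higher and 2 lower (7.96% and 5.01% of all tested genes). With Smarcb1 loss 5 were higher and 2 lower (14.4% and 14.2% of all tested genes). Acsl1, an acyl-CoA synthetase, was at 132, 146 and 109.7 CPM in wild type, 18.1, 25.8 and 22.3 CPM in Braf vehicle and 94.3, 74.2 and 91.7 CPM in Braf CKI libraries. It was lower in Braf vehicle than in wild type (log2 fold change -2.55 with SE 0.28, adjusted p = 2.20e-06). It rose with CKI in Braf (log2 fold change 1.98 with SE 0.27, adjusted p = 2.35e-04), in Braf Arid1a (log2 fold change 1.71 with SE 0.27, adjusted p = 0.00121) and in the libraries labelled Braf Arid2 (log2 fold change 1.91 with SE 0.33, adjusted p = 0.00344). In Braf Smarcb1 its log2 fold change with CKI was 0.12, and this response differed from that in Braf (log2 difference of responses -1.86 with SE 0.38, adjusted p = 0.0311). Acsl4, an acyl-CoA synthetase with a preference for arachidonic acid, moved the other way. Its level was higher in Braf vehicle than in wild type (log2 fold change 2.56 with SE 0.30, adjusted p = 5.57e-06). It was lower with CKI in Braf (log2 fold change -2.03 with SE 0.30, adjusted p = 3.63e-04), in Braf Arid1a (-1.20) and in Braf Smarcb1 (-1.64). Acss2, which makes acetyl-CoA from acetate (2.00), and Slc25a1, the mitochondrial citrate carrier (2.07), rose with CKI in Braf, with adjusted p of 0.0108 and 0.0186. Thrsp, a lipogenic nuclear protein, was lower in Braf vehicle than in wild type (log2 fold change -5.61 with SE 1.08, adjusted p = 7.54e-04). So was Dgat2, which makes triglyceride (log2 fold change -2.61 with SE 0.61, adjusted p = 0.00403). With Smarcb1 loss Acss2 (1.71), Dgat2 (1.90) and Elovl4, an elongase (3.55), were higher and Acsl4 lower (-1.30).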

How the data were processed

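Thyroid RNA libraries were made with a TruSeq RNA kit, per the labels' protocols. These do not state strand, so reads of overlapping genes cannot be told apart. Apart from strand, reads of close paralogs may be shared between genes. The authors deposited 1 merged table of read counts per gene; STAR 2.4, HTSeq 0.6.1, DESeq2 and the build mm9 are named in the submitters' processing notes. Every column was matched to a sample by its title, 28 libraries in all; the other 2 labelled samples are not analysed here.

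Counts were fitted with edgeR 4.0.16 (R 4.3.3, limma 3.58.1): filterByExpr, TMM factors, and quasi-likelihood tests in 1 model of 10 groups, with Benjamini-Hochberg adjustment over 19016 genes and a threshold of 0.05, for 13 comparisons. Total counts were 23879271 to 34400066 per library. Each of 26 library pairs within groups showed differences beyond counting error (a chi-square statistic over its degrees of freedom of 77.0 to 359). Same-numbered libraries of the Braf Arid1a vehicle and Arid1a knockout groups had weakly positive correlations of their deviations (0.139, 0.134 and 0.19). These do not show that the libraries were paired, and library 2 had the highest weight of GC-rich genes in both groups. The replicate block, a replicate-number term shared by all 10 groups, does not pair these groups alone. With it the same 17 members were called. In no other comparison did all pairs exceed 0.1.

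Alternatives were RLE factors, no filter, DESeq2 1.42.0, only the compared groups, a replicate block, each library left out, and adipocyte or leukocyte marker levels (log2 of CPM plus 1) as covariates. Offsets for GC content and length (loess span 0.4, 16024 genes, all 31 members) and leaving out both Arid1a knockout libraries 1 and 3 were chosen after seeing the data. Members and lists were chosen with earlier results of these data known. Every member is named; values in every library are given for Srebf1, Srebf2, Insig1, the 6 sterol and 6 fatty acid enzymes with the smallest p, and Fdps, called in a difference of drug response; up to 4 called genes per comparison come from each other list. Some genes of these lists are counted but not reported here by name. The functions were tested on simulated counts. RefSeq promoters on GRCm38.p6 were used for sequence only, since the table is on mm9.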

Additional observations from a re-analysis of the deposited data

Results flagged for a closer look

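Elovl6 and Fdps were listed because their response to CKI differed between genotypes in a test of the difference itself. For Elovl6 the log2 response in Braf Smarcb1 minus that in Braf was -3.39 (SE 0.43, edgeR adjusted p = 0.00104). All 3 Braf CKI libraries (229, 149.8 and 148 CPM) lay above all 3 Braf vehicle libraries (25, 28.7 and 27.1 CPM), and all 3 Braf Smarcb1 CKI libraries (43.9, 45 and 32.9 CPM) lay below the 3 Braf Smarcb1 vehicle libraries (88.8, 53.2 and 53.8 CPM). Thyroid follicular cell markers rose with CKI in both genotypes, in 7 of 8 in Braf and in 5 of 8 in Braf Smarcb1. In the test of the difference, 2 of the 8 were lower in Braf Smarcb1, with a median log2 difference of -1.08, the same direction as Elovl6, and their part in the difference was not tested.

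For Fdps the log2 response in the libraries labelled Braf Arid2 minus that in Braf was 1.48 (SE 0.39, edgeR adjusted p = 0.0241). Both CKI libraries labelled Braf Arid2 (152 and 107 CPM) lay above both vehicle libraries (63.2 and 67.9 CPM), while the Braf CKI libraries (53.9, 43.4 and 44.2 CPM) lay near or below Braf vehicle (91.6, 52.9 and 55.9 CPM). This call was lost without Braf vehicle library 2 or Braf CKI library 4 or Braf Arid2 vehicle library 2 or 4 or Braf Arid2 CKI library 3 or 4 (adjusted p = 0.051 to 0.193), and with the GC and length offsets and with only the compared groups fitted (adjusted p = 0.0596 to 0.0644). In the same difference of drug response, dissociation stress genes were lower in 4 of 10 (median log2 difference -3.07), and their part was not tested.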

How the results depend on the processing

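Of the 70 calls of a member in a comparison, 0 reversed direction in any alternative. DESeq2 kept 70, RLE factors 68, no filter 62, the GC and length offsets 60, the adipocyte covariate 57, the replicate block 56, only the compared groups 45 and the leukocyte covariate 36. With each library left out in turn 33 of the 70 calls were kept throughout, and 37 were lost without at least 1 library. The causes were not tested, except that fewer libraries or groups leave fewer degrees of freedom. With 23879271 or more counts per library, counting error bears most on values under 1 CPM, such as Elovl2 in Braf Smarcb1 vehicle, and each group has only 2 or 3 libraries.

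The leukocyte covariate moved the number of members called from 8 to 0 in Arid1a knockout against wild type, from 17 to 11 in Braf Arid1a vehicle against Arid1a knockout, from 5 to 2 with CKI in Braf, from 4 to 2 with CKI in Braf Arid1a, from 1 to 0 with the Arid2 label, from 16 to 5 with Smarcb1 loss, and from 1 to 2 in the difference of drug response for Braf Arid2. Calls over all genes went in the same order from 3538 to 3, from 7698 to 4609, from 2466 to 94, from 858 to 330, from 686 to 120, from 5433 to 1918 and from 1647 to 1464. In each of these comparisons of 2 groups the leukocyte marker level lay apart between the groups. The lost calls there do not decide the leukocyte part. Fitting only the compared groups moved it from 8 to 5 in Arid1a knockout against wild type, from 3 to 0 with CKI in Braf Smarcb1, from 6 to 3 with Arid1a loss, from 1 to 0 with the Arid2 label and from 16 to 7 with Smarcb1 loss. Calls over all genes went in that order from 3538 to 2333, from 732 to 2, from 1818 to 829, from 686 to 1 and from 5433 to 2335. DESeq2 called 5 with CKI in Braf Arid2, 5 with CKI in Braf Smarcb1, 3 with the Arid2 label and 7 in the difference of drug response for Braf Arid2. The adipocyte covariate called 3 with Arid1a loss (2 of them among the 6 calls) and 0 with the Arid2 label, and RLE factors, no filter and the GC and length offsets left 0 there. The GC and length offsets also left 0 in the difference for Braf Arid2. Leaving out both Arid1a knockout libraries 1 and 3 left 1 knockout library, so calls are not counted for that setting.

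The replicate block called 2 members with CKI in Braf Arid1a, 1 with CKI in Braf Smarcb1 and 3 with Arid1a loss, and in the other comparisons it stayed within 1.5 times the count, but its 1 call with the Arid2 label was not Me1. Outside the pair of groups named in the methods, correlations of same-numbered libraries ran from -0.535 to 0.241. The numbers were not taken as pairs in any comparison.

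Leaving out 1 library gave 4 to 8 members in Braf vehicle against wild type (8 without Braf vehicle library 4) and 1 to 13 in Arid1a knockout against wild type (3, 13 and 1 without knockout library 1, 2 and 3, and 2 without wild-type library 2). It gave 14 to 20 in Braf Arid1a vehicle against Arid1a knockout. With CKI it gave 3 to 6 in Braf (3 without Braf vehicle library 2 or Braf CKI library 1), 2 to 3 in Braf Arid1a (2 without vehicle library 3), 1 to 3 in Braf Arid2 (1 without vehicle library 2) and 1 to 5 in Braf Smarcb1 (1 without vehicle library 1 or 2 or CKI library 1 or 4, and 5 without vehicle library 3). With Arid1a loss it gave 1 to 5 (1 without Braf Arid1a library 1 or 3, and 2 without any of the 3 Braf vehicle libraries), with the Arid2 label 0 to 1 (0 without any Braf vehicle library or Braf Arid2 library 4) and with Smarcb1 loss 11 to 16. The differences of drug response gave 0 to 1 for Braf Arid1a (1 without CKI library 5), 0 to 3 for Braf Arid2 (0 without Braf vehicle library 2, Braf CKI library 4, Braf Arid2 vehicle library 2 or Braf Arid2 CKI library 3 or 4; 3 without Braf vehicle library 5; 2 without Braf CKI library 5 or Braf Arid2 vehicle library 4) and 1 to 1 for Braf Smarcb1.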

Other observations

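Of 10 genes of sterol efflux and storage tested beside the members, 3 were higher and 1 lower in Braf vehicle against wild type. Of all tested genes, 9.84% and 10.1% were. With Smarcb1 loss 1 was higher and 2 lower (14.4% and 14.2% of all tested genes). With CKI in Braf Smarcb1 1 was lower (2.05% of all tested genes). Nceh1, a hydrolase of cholesterol esters, was at 254, 278 and 214 CPM in wild type, 54.5, 75.8 and 61.5 CPM in Braf vehicle, 536, 202 and 301 CPM in Braf Smarcb1 vehicle and 103, 83.2 and 99.2 CPM in Braf Smarcb1 CKI libraries. Nceh1 was lower in Braf vehicle than in wild type (log2 fold change -1.96 with SE 0.28, adjusted p = 3.94e-05). It was higher with Smarcb1 loss (log2 fold change 2.44 with SE 0.28, adjusted p = 6.91e-06). With CKI in Braf Smarcb1 it was lower (log2 fold change -1.86 with SE 0.28, adjusted p = 7.95e-04). Its drug response in Braf Smarcb1 differed from that in Braf (log2 difference of responses -2.34 with SE 0.39, adjusted p = 0.0107). Npc2, which binds cholesterol in the lysosome, was at 740.1, 947 and 884 CPM in wild type, 5178, 2192 and 2198 CPM in Braf vehicle and 398, 459 and 771 CPM in Braf Smarcb1 vehicle libraries. Npc2 was higher in Braf vehicle than in wild type (log2 fold change 1.90 with SE 0.36, adjusted p = 7.82e-04). It was lower with Smarcb1 loss (log2 fold change -2.55 with SE 0.37, adjusted p = 5.74e-05). Both genes are also expressed by macrophages, and leukocyte markers fell in 4 of 7 with Smarcb1 loss; their part in these values was not tested. With CKI in Braf, 0 of the 10 genes passed edgeR's test, where 13% of all tested genes did. An unadjusted p under 0.05 was found for 2 of them and for 5461 of 19016 genes.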
